A study of Homo sapiens with 9 samples.

Results

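The 10 genes described here are the cyclins and kinases that carry a cell through G1 and into S phase: the D-type cyclins CCND1, CCND2 and CCND3, their kinases CDK4 and CDK6, the E-type cyclins CCNE1 and CCNE2, cyclin A2 (CCNA2), their kinase CDK2, and the phosphatase CDC25A. They were taken by symbol from a table of 60612 genes, with no cut on a measured value. The 10 were, however, chosen with earlier results of these data known. All 10 were found and had enough counts to be tested. The RNA was that of MDA-MB-231, an established human breast cancer line that lacks hormone receptors and ERBB2 amplification (triple-negative), harvested 48 h after lipid transfection with MILIP siRNA1, MILIP siRNA2 or a control siRNA, with 3 libraries in each group and 9 in all. MILIP is a long noncoding RNA listed under the symbol MAFG-DT. The free text on treatment calls the siRNAs by the name PLANE, whereas the title and the treatment label of each sample say MILIP.

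D-type cyclins are made in response to growth signals and activate CDK4 and CDK6, which start the phosphorylation of the retinoblastoma protein and free the E2F transcription factors. E2F factors then drive transcription of E-type cyclins, cyclin A2 and replication genes, and CDK2 bound to cyclin E and later to cyclin A completes the step into S phase. CDC25A removes inhibitory phosphates from CDK2, while the CIP/KIP and INK4 proteins inhibit these kinases. In breast tumours the D cyclin and CDK4/CDK6 step is the target of approved kinase inhibitors.

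MILIP itself was low in every library of both siRNA groups. It had 19, 11 and 37 counts in the siRNA1 libraries, 10, 19 and 6 in the siRNA2 libraries, and 133, 126 and 148 in the control libraries. These are 1.24 ± 0.641, 0.616 ± 0.316 and 8.41 ± 0.254 CPM (counts scaled by TMM to a common library total; SD, n = 3 each), so that 14.7% of the control level was left with siRNA1 and 7.32% with siRNA2. No siRNA library reached the control range. The log2 fold change was -2.74 with siRNA1 (adjusted p = 2.51e-09) and -3.73 with siRNA2 (adjusted p = 5.34e-11), by the quasi-likelihood test of edgeR, with p-values adjusted by Benjamini-Hochberg over the 15345 genes tested. This test and this adjustment are behind every adjusted p below unless another is named, and a gene is called at an adjusted p below 0.05.

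Library totals ran from 15281220 to 19759371 counts. Nothing in the labels states that libraries of the same group were grown as separate cultures, and p-values therefore cover only the spread among these libraries, part or all of which may be technical. ESR1 and PGR, the hormone receptor genes that triple-negative tumours lack, were below the filter on low counts in all groups. VIM, the mesenchymal intermediate filament, averaged 4619, 4073 and 4780 CPM in siRNA1, siRNA2 and control libraries. Of 10 breast line markers 8 were tested: 3 rose and 2 fell with siRNA1, and 3 rose and 4 fell with siRNA2. The shares of all tested genes were 25.1% and 25.3%, and 27.2% and 28.9%. Epithelial markers moved with siRNA1 and siRNA2: KRT8 by 1.20 and 0.33 on the log2 scale, and KRT18 by 0.72 and -0.36. CDH1 changed by 1.57 and 0.88 (siRNA2 did not pass), and EPCAM by 0.04 (did not pass) and -0.75. Of 8 fibroblast markers 5 were tested: COL1A1 and PDGFRB rose and THY1 fell with both siRNAs (THY1 log2 fold change -0.68 and -0.52, adjusted p = 0.0146 and 0.0492), and COL1A2 and COL3A1, at most 0.0593 CPM on average in siRNA1 and control libraries, rose with siRNA2 to 2.07 and 1.21 CPM. The summed level of the list was 51.0 to 59.5 CPM in siRNA1 libraries, 72.8 to 75.1 CPM in siRNA2 libraries and 11.6 to 14.2 CPM in control libraries. DCN, LUM and PDGFRA of that list averaged at most 0.21 CPM in any group. The part of these markers in the results below was not tested. The 6 leukocyte markers summed to 12.2 to 13.7, 15.1 to 17.1 and 16.4 to 19.3 CPM, with CD3E among those at 0 in all libraries, and the 5 endothelial markers to 5.78 to 7.16, 18.4 to 20.5 and 8.78 to 11.1 CPM. In RNA of a whole culture, a smaller share of cells in a cycle phase and less of a transcript per cell cannot be told apart.

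With siRNA1 all 10 genes passed the test: CCND2, CDK6, CDK4, CCNE1, CCNE2 and CDK2 fell and CCND1, CCND3, CCNA2 and CDC25A rose. Among all tested genes 50.4% were called with siRNA1, 25.3% lower and 25.1% higher, so a call is common and the 6 lower and 4 higher stand against that background. With siRNA2 5 fell (CDK4, CCNE1, CCNE2, CCNA2 and CDK2) and CCND3 rose, while CCND1, CCND2, CDK6 and CDC25A did not pass. The background there was 56.1%, with 28.9% lower and 27.2% higher, so the 6 of 10 called is close to the share of all genes. CDK2, CDK4, CCNE1 and CCNE2 fell with both siRNAs, a pattern held by 11.1% of all tested genes. CCND3 was the single gene of the 10 that rose with both (11.8% of all genes), and CCNA2 the single gene called in opposite directions (9.93%). Both comparisons use the same control libraries. The median log2 fold change of the 10 genes was -0.51 with siRNA1 and -0.28 with siRNA2, against 0.0032 and -0.011 over all tested genes.

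**Figure D1:**
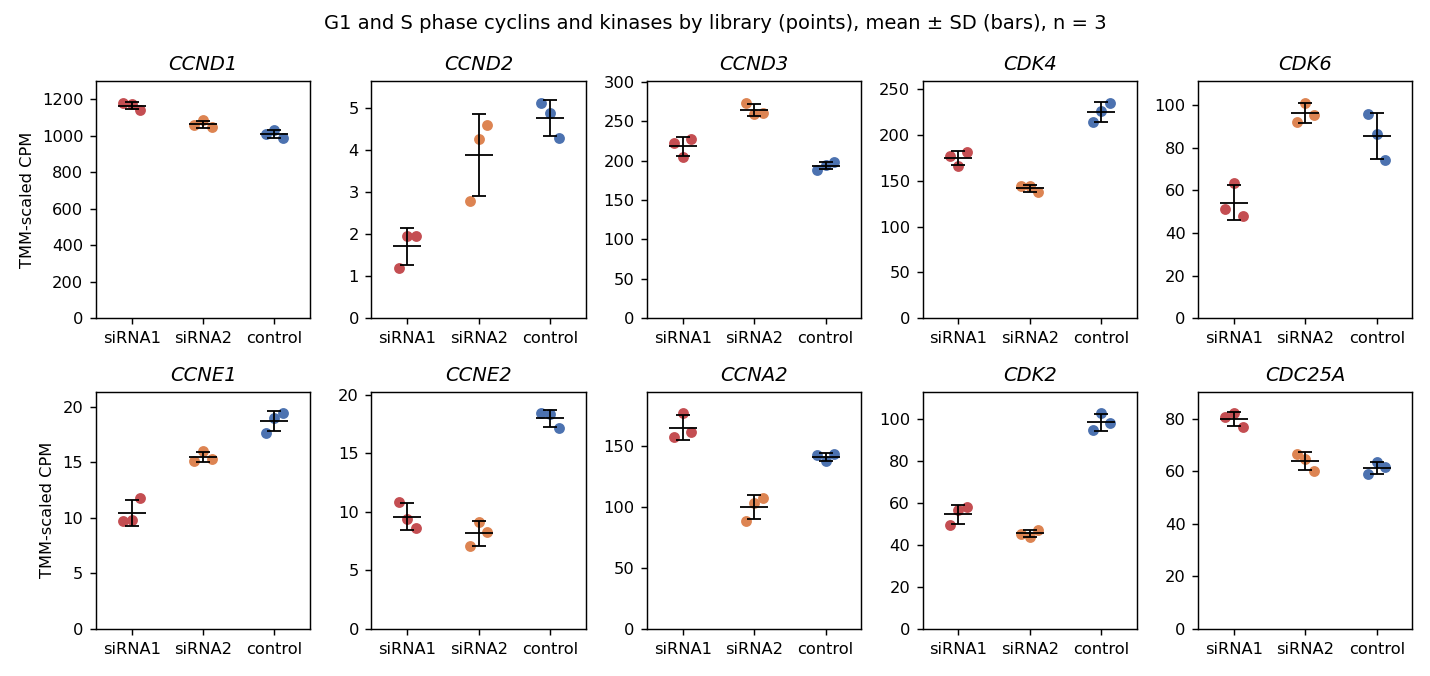
TMM-scaled CPM of the 10 genes (vertical axes, each starting at 0) in the 3 siRNA1, 3 siRNA2 and 3 control libraries; points are libraries, horizontal marks the mean and bars the SD. The siRNA1 and siRNA2 points of CDK2, CDK4, CCNE1 and CCNE2 lie below all control points, those of CCND3 lie above them, and those of CCNA2 lie above with siRNA1 and below with siRNA2.

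**Figure D2:**
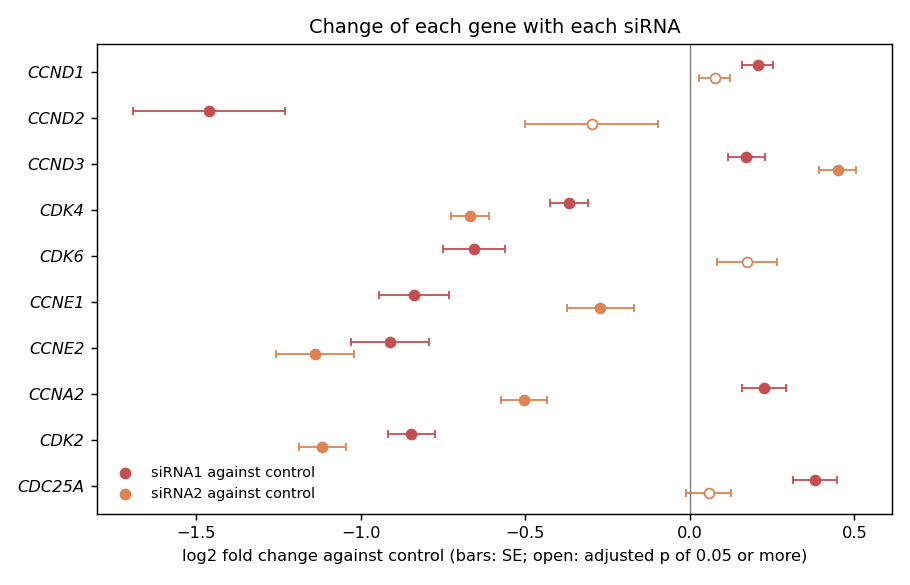
Log2 fold change against control of each gene with siRNA1 (red) and siRNA2 (orange); bars are the SE and open points have an adjusted p of 0.05 or more. CCND2 with siRNA1, at -1.46, is the lowest point, and the open points are CCND1, CCND2, CDK6 and CDC25A with siRNA2.

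Per base of the deposited exonic size, the 10 genes spanned a wide range. This size is given per gene and need not be the length of the transcript made. The order below and the shares of paralogs given later depend on it. In control libraries, in the authors' FPKM, CCND1 was at 210.5 ± 5.01, CDK4 at 72.3 ± 2.97, CCNA2 at 51.1 ± 1.2, CCND3 at 33.4 ± 0.645 and CDK2 at 25.1 ± 0.940. CDC25A was at 14.7 ± 0.465, CCNE1 at 7.53 ± 0.318, CDK6 at 6.93 ± 0.917, CCNE2 at 4.06 ± 0.180 and CCND2 at 0.593 ± 0.0569 FPKM (SD, n = 3). The ranges of neighbours in this order were apart except those of CCNE1 and CDK6. With siRNA1 CCNA2 stood second at 60.9 ± 4.23 FPKM, its range overlapping that of CDK4 at 57.1 ± 2.23 FPKM, and CDC25A stood above CDK2 (19.5 ± 0.722 and 14.2 ± 1.24 FPKM). With siRNA2 CCND3 and CDK4 were level within their ranges (45.6 ± 0.894 and 45.5 ± 0.985 FPKM) and CCNA2 came next at 36.1 ± 3.93 FPKM. CCND1 was first and CCNE2 and CCND2 were last in all 3 groups.

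CCND1, which encodes the D-type cyclin this line makes most, rose slightly with siRNA1. It had 1181, 1171 and 1141 CPM in siRNA1 libraries, 1061, 1084 and 1046 CPM in siRNA2 libraries, and 1008, 1032 and 988.6 CPM in control libraries. No siRNA1 or siRNA2 library overlapped the control range. On the log2 scale the difference was 0.21 with siRNA1 (SE 0.0483, adjusted p = 0.000953) and 0.08 with siRNA2 (95% interval -0.02 to 0.18, adjusted p = 0.191). With genes limited to a mean FPKM of at least 1 the siRNA2 difference passed, at 0.11 (adjusted p = 0.0484). The gene lies on chromosome 11 at chr11:69641156-69654474, plus strand (GRCh38), and 10.3% of its exonic bases overlap LTO1 on the opposite strand, which averaged 52.0 CPM over the 9 libraries and had log2 fold changes of 0.27 and -0.45. The sources used here do not give whether counting used strand, so reads of this overlap, and of the opposite-strand overlaps of CDK4, CCNE2 and CCNA2 given below, cannot be assigned to either gene.

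CCND2, the D-type cyclin of lowest level here, fell with siRNA1 to 35.8% of the control level. Its counts were 19, 35 and 38 in siRNA1 libraries, 52, 84 and 79 in siRNA2 libraries, and 83, 74 and 73 in control libraries, which are 1.203, 1.97 and 1.95 CPM, 2.78, 4.27 and 4.601 CPM, and 5.13, 4.89 and 4.29 CPM. The siRNA1 libraries all lay below the other groups, while the siRNA2 and control ranges overlapped. The log2 fold change was -1.46 with siRNA1 (SE 0.230, adjusted p = 9.28e-06) and -0.30 with siRNA2 (95% interval -0.72 to 0.12, adjusted p = 0.219). CCND2 lies on chromosome 12 (chr12:4269771-4305353, plus strand), and its longest annotated 3 prime UTR has 5341 bases. A stretch of 13.8% of its exonic bases overlaps AC008012.1 on the same strand, which had 0 CPM.

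CDK6, a kinase partner of the D cyclins, also fell with siRNA1. It had 51.0, 63.6 and 48.0 CPM in siRNA1 libraries, 92.0, 101.2 and 95.6 CPM in siRNA2 libraries, and 95.6, 86.5 and 74.1 CPM in control libraries. All siRNA1 values were below all control values, and the siRNA2 range overlapped the control range. Against control, the log2 fold change was -0.66 with siRNA1 (SE 0.0929, adjusted p = 2.09e-06) and 0.17 with siRNA2 (95% interval -0.01 to 0.36, adjusted p = 0.106). The siRNA2 difference passed with no filter on low counts (0.20, adjusted p = 0.0207), without control library 1 (0.28, adjusted p = 0.0148) and without siRNA1 library 2 (0.17, adjusted p = 0.0451). CDK6 lies on chromosome 7 (chr7:92604921-92836573, minus strand) and its longest annotated 3 prime UTR has 10219 bases.

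CCND2 and CDK6 were the members whose 3 prime UTR holds the word linked to lower transcripts with siRNA1. A search of 15940 words of 7 bases in the 3 prime UTRs of 12579 tested genes had picked AATTCCA for siRNA1 (in 2109 UTRs, 16.8%, with a mean shift of -0.36 on the log2 scale) and GACCCTA for siRNA2 (in 665 UTRs, 5.29%, shift -0.43). CCND2 holds the siRNA1 word 3 times and the siRNA2 word 2 times, CDK6 holds the siRNA1 word 3 times and the siRNA2 word not at all, and the 8 other genes hold neither. The choice of each word used these fold changes, those of CCND2 and CDK6 included, so the link is a description; siRNA sequences were not used here. Long UTRs hold more words: of 4519 genes with a 3 prime UTR of at least 2000 bases, 33.8% hold the siRNA1 word, and their median log2 fold change with siRNA1 was -0.19, against 0.02 without the word. CCND1, with a UTR of 3192 bases and no such word, is the third gene of the 10 in that length class. For the siRNA2 word the share was 10.3% and the medians were -0.32 and 0.03 with siRNA2.

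The sites are shown because CCND2 and CDK6 fell with siRNA1 and not, by this test, with siRNA2. Each is the sense strand from GENCODE transcripts in GRCh38 coordinates, with the word in capitals.
CCND2, siRNA1 word, chr12:4301809-4301837, plus strand: tttactgcttaAATTCCAagtcctgaagt
CCND2, siRNA1 word, chr12:4302355-4302383, plus strand: agactaaaaagAATTCCAccaggctgttt
CCND2, siRNA1 word, chr12:4302748-4302776, plus strand: tacagaggtgaAATTCCAgatgagtcagt
CCND2, siRNA2 word, chr12:4302814-4302842, plus strand: tgagttagcatGACCCTAaaattctaggg
CCND2, siRNA2 word, chr12:4304619-4304647, plus strand: ctgggctatcaGACCCTAttctcggctca
CDK6, siRNA1 word, chr7:92614875-92614903, minus strand: gaacctggaaaAATTCCAgaagaagagaa
CDK6, siRNA1 word, chr7:92608970-92608998, minus strand: gcgaaaggccgAATTCCAccccagggttt
CDK6, siRNA1 word, chr7:92604923-92604951, minus strand: aaaattcattaAATTCCAagttttagcag

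**Figure D3:**
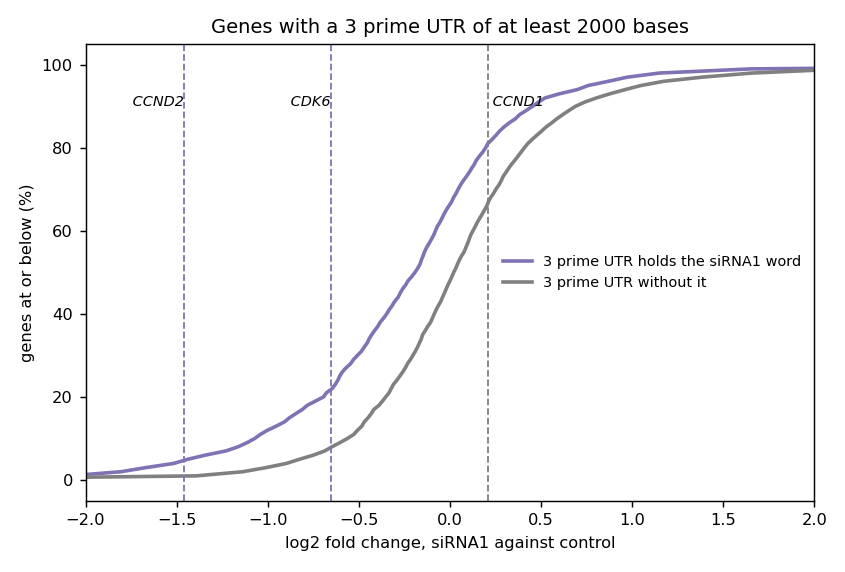
Cumulative share of genes (vertical axis, %) at or below each log2 fold change with siRNA1 (horizontal axis), among 4519 genes with a 3 prime UTR of at least 2000 bases, for genes with the siRNA1 word (purple) and without it (grey). Dashed lines mark CCND2 (-1.46) and CDK6 (-0.66), which hold the word, and CCND1 (0.21), which does not. The purple curve lies left of the grey one, with medians of -0.19 and 0.02. The word was picked for its shift in these same fold changes, so the gap between the curves is a description and no test.

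CCND3, the third D-type cyclin, rose with both siRNAs. It had 222.6, 205.1 and 227.7 CPM in siRNA1 libraries, 273.9, 259.2 and 261.1 CPM in siRNA2 libraries, and 188.9, 194.2 and 198.8 CPM in control libraries. The 3 groups did not overlap. In log2 terms CCND3 changed by 0.17 with siRNA1 (SE 0.0572, adjusted p = 0.0147) and 0.45 with siRNA2 (SE 0.0570, adjusted p = 2.88e-07). The siRNA1 call was lost without control library 1 (0.15, adjusted p = 0.0626), without siRNA1 library 1 (0.14, adjusted p = 0.0967) and without siRNA1 library 3 (0.14, adjusted p = 0.0871), and the siRNA2 call was kept in every alternative run. CCND3 lies on chromosome 6 (chr6:41934934-42050357, minus strand).

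CDK4, the more abundant kinase of the D cyclins here, fell with both siRNAs. It had 177.2, 166.1 and 181.0 CPM in siRNA1 libraries, 144.1, 144.1 and 137.3 CPM in siRNA2 libraries, and 214.1, 226.3 and 235.4 CPM in control libraries. No library overlapped those of another group, and the siRNA2 libraries were the lowest. The log2 fold change was -0.37 with siRNA1 (SE 0.0583, adjusted p = 1.07e-05) and -0.67 with siRNA2 (SE 0.0587, adjusted p = 5.92e-10). CDK4 lies on chromosome 12 (chr12:57747727-57756013, minus strand), and 43.2% of its exonic bases overlap TSPAN31 on the opposite strand. TSPAN31 averaged 12.9 CPM and had log2 fold changes of 0.41 with siRNA1 and 0.21 with siRNA2, opposite in sign to those of CDK4.

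Promoter sequence (RefSeq, GRCh38.p14, 250 bases before to 50 after the start) was at hand for 9 starts of 6 of the 10 genes: CCND3, CDK4, CDK6, CCNE1, CCNA2 and CDC25A. They were searched on both strands for E2F sites (TTTCCCGC, TTTCGCGC, TTTGCCGC or TTTGGCGC), the E-box CACGTG bound by MYC, the cyclic AMP response element (CRE) TGACGTCA and the CCAAT box; none of these words contains another. CDK4 is shown because it fell with both siRNAs and holds 3 E-boxes, with first bases at -216, -196 and -101 relative to the start, where 7.26% of 35116 promoters hold any.
CDK4, chr12:57752261-57752560, minus strand, E-boxes in capitals: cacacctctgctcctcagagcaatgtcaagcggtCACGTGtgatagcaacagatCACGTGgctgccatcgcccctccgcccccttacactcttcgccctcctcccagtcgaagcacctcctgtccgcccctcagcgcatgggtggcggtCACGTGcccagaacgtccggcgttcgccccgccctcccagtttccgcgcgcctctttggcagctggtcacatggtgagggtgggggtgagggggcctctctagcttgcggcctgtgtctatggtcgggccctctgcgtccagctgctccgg
MYC, the E-box-binding transcription factor, averaged 113.2 ± 5.07 CPM in siRNA1 libraries, 85.7 ± 2.43 CPM in siRNA2 libraries and 125.2 ± 4.30 CPM in control libraries (SD, n = 3 each). Its log2 fold change was -0.15 with siRNA1, which did not pass (adjusted p = 0.05), and -0.55 with siRNA2 (adjusted p = 4.23e-08). The part of MYC in the CDK4 result was not tested. Of the other promoters, that of CDK6 holds an E-box 30 bases after the start, and that of CCNE1 holds none of the words searched.

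CCNE1, an E-type cyclin and CDK2 partner, fell with both siRNAs, more with siRNA1. It had 9.69, 9.77 and 11.8 CPM in siRNA1 libraries, 15.1, 16.0 and 15.3 CPM in siRNA2 libraries, and 17.7, 19.0 and 19.4 CPM in control libraries. The 3 groups did not overlap. CCNE1 had a log2 fold change of -0.84 with siRNA1 (SE 0.107, adjusted p = 4.02e-07) and -0.27 with siRNA2 (SE 0.102, adjusted p = 0.0255). The siRNA2 call was lost with DESeq2 (-0.25, adjusted p = 0.0905), with no filter on low counts (adjusted p = 0.099), without control library 2 or 3 (adjusted p = 0.0623 and 0.0737) and without siRNA2 library 1 or 3 (adjusted p = 0.0767 and 0.0662). CCNE1 lies on chromosome 19 (chr19:29811991-29824312, plus strand).

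CCNE2, the other E-type cyclin, fell with both siRNAs. It had 10.8, 9.38 and 8.57 CPM in siRNA1 libraries, 7.05, 9.14 and 8.27 CPM in siRNA2 libraries, and 18.4, 18.4 and 17.2 CPM in control libraries. Both siRNA groups lay below every control library and overlapped each other. Its log2 fold changes were -0.91 with siRNA1 (SE 0.117, adjusted p = 4.97e-07) and -1.14 with siRNA2 (SE 0.119, adjusted p = 1.16e-08). CCNE2 lies on the minus strand of chromosome 8 (chr8:94879770-94896678), and 37.0% of its exonic bases overlap INTS8 on the opposite strand, which averaged 23.8 CPM and had log2 fold changes of 0.19 and 0.03. This INTS8 average, of reads and not per length, is above the highest CCNE2 library, and as the strand setting is not known the level, fold changes and share of CCNE2 may hold reads of INTS8.

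CDK2, the kinase of cyclins E and A, had the lowest adjusted p of the 10 genes with each siRNA. It had 49.5, 56.5 and 57.9 CPM in siRNA1 libraries, 45.4, 44.0 and 46.9 CPM in siRNA2 libraries, and 94.5, 102.6 and 98.1 CPM in control libraries. The 3 groups did not overlap. The level was 55.6% of control with siRNA1 (log2 fold change -0.85, SE 0.0709, adjusted p = 3.5e-10) and 46.2% with siRNA2 (-1.12, SE 0.0716, adjusted p = 1.96e-12). CDK2 lies on chromosome 12 (chr12:55966781-55972789, plus strand), where 14.5% of its exonic bases overlap AC025162.1, an antisense gene with 0 CPM in these libraries.

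CCNA2, which replaces E cyclins on CDK2 in S phase and binds CDK1 later, moved in opposite directions. It had 157.5, 177.2 and 161.8 CPM in siRNA1 libraries, 89.0, 103.1 and 107.7 CPM in siRNA2 libraries, and 142.7, 138.0 and 144.1 CPM in control libraries. All siRNA1 values lay above and all siRNA2 values below the control range. CCNA2 had a log2 fold change of 0.23 with siRNA1 (SE 0.0679, adjusted p = 0.0076) and -0.50 with siRNA2 (SE 0.0689, adjusted p = 9.21e-07). The siRNA1 call was lost with limma on log2(FPKM + 1) with no filter on low values (0.25, adjusted p = 0.0659). CCNA2 lies on chromosome 4 (chr4:121816444-121823883, minus strand), and 9.1% of its exonic bases overlap EXOSC9 on the opposite strand (53.1 CPM, log2 fold changes -0.27 and -0.40). Its promoter is shown because it holds the CRE, at -81, which 1.85% of promoters hold, with a CCAAT box in reverse at -56 (in 34.6% of promoters).
CCNA2, chr4:121823834-121824133, minus strand, CRE and CCAAT box in capitals: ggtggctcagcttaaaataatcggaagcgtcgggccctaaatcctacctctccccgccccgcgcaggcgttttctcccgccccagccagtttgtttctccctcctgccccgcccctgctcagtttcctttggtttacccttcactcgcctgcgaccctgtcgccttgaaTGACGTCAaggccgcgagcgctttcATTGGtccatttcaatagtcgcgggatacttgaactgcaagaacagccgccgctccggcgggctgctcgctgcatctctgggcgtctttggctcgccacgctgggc

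CDC25A, the phosphatase that activates CDK2, rose with siRNA1. It had 80.6, 82.1 and 76.9 CPM in siRNA1 libraries, 66.7, 64.6 and 60.1 CPM in siRNA2 libraries, and 59.0, 63.4 and 61.6 CPM in control libraries. The siRNA1 libraries lay above all others, and the siRNA2 and control ranges overlapped. For CDC25A the log2 fold change was 0.38 with siRNA1 (SE 0.0673, adjusted p = 4.29e-05) and 0.06 with siRNA2 (95% interval -0.08 to 0.20, adjusted p = 0.493). CDC25A lies on chromosome 3 (chr3:48157146-48188417, minus strand). Its promoter is shown because CDC25A rose with siRNA1 while the E-type cyclins fell. It was the single promoter of the 9 with any of the E2F words searched, at -44 (in 3.32% of promoters). It has CCAAT boxes in reverse at -110 and -58. Other forms of E2F site were not searched, so the lack of these words elsewhere does not show a lack of E2F sites. The CCNE2 and CDK2 promoters were not at hand.
CDC25A, chr3:48188368-48188667, minus strand, E2F site and CCAAT boxes in capitals: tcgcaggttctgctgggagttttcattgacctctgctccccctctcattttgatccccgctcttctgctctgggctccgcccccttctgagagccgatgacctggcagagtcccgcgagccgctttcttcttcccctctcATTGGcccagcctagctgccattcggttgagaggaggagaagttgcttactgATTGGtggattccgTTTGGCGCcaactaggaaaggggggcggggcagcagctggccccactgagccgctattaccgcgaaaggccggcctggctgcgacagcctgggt

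The siRNA groups differed from each other in 9 of the 10 genes, 5 lower and 4 higher with siRNA2. Of all tested genes 60.4% were called in this comparison, 32.0% lower and 28.4% higher, so such a difference is common. CCND2 (log2 fold change 1.16, adjusted p = 0.000124), CDK6 (0.83, adjusted p = 2.56e-08), CCNE1 (0.57, adjusted p = 6.22e-05) and CCND3 (0.28, adjusted p = 0.000161) were higher with siRNA2 than with siRNA1. CCNA2 (-0.73, adjusted p = 1.45e-09), CDC25A (-0.32, adjusted p = 0.000178), CDK4 (-0.30, adjusted p = 9.39e-05), CDK2 (-0.27, adjusted p = 0.0025) and CCND1 (-0.13, adjusted p = 0.0224) were lower. The CCND1 call was lost with median-of-ratios scaling (adjusted p = 0.0634), with no filter on low counts (adjusted p = 0.151) and without control library 1, siRNA1 library 1, siRNA2 library 1 or siRNA2 library 3 (adjusted p = 0.0571 to 0.140). For CCNE2 the difference was -0.23, with a 95% interval of -0.49 to 0.03 (adjusted p = 0.123).

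In the balance within each set of paralogs the siRNA2 libraries stood apart. CDK6 made up 6.79%, 8.82% and 6.29% of the summed FPKM of CDK4 and CDK6 in siRNA1 libraries, 13.9%, 15.1% and 15.0% in siRNA2 libraries, and 10.2%, 8.81% and 7.38% in control libraries. CCNE2 made up 38.4%, 34.9% and 29.01% of the E-type cyclins in siRNA1 libraries, 20.7%, 24.2% and 23.2% in siRNA2 libraries, and 36.8%, 35.2% and 33.1% in control libraries. CCND1 made up 86.5% ± 0.752 of the D-type cyclins with siRNA1, 82.8% ± 0.515 with siRNA2 and 86.1% ± 0.455 in control libraries (SD, n = 3 each). The siRNA2 libraries did not overlap either other group in any of the 3 shares, and siRNA1 and control libraries overlapped in all 3. The difference of siRNA2 from control was 5.87 percentage points for CDK6, -12.3 for CCNE2 and -3.30 for CCND1. Each exact two-sided permutation test returned p = 0.1, the lowest value possible with 3 libraries on each side (0.15 adjusted over 9 tests), so the design cannot reach 0.05. For siRNA1 against control the differences were -1.48, -0.91 and 0.42 percentage points (exact permutation p = 0.3, 0.8 and 0.4).

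**Figure D4:**
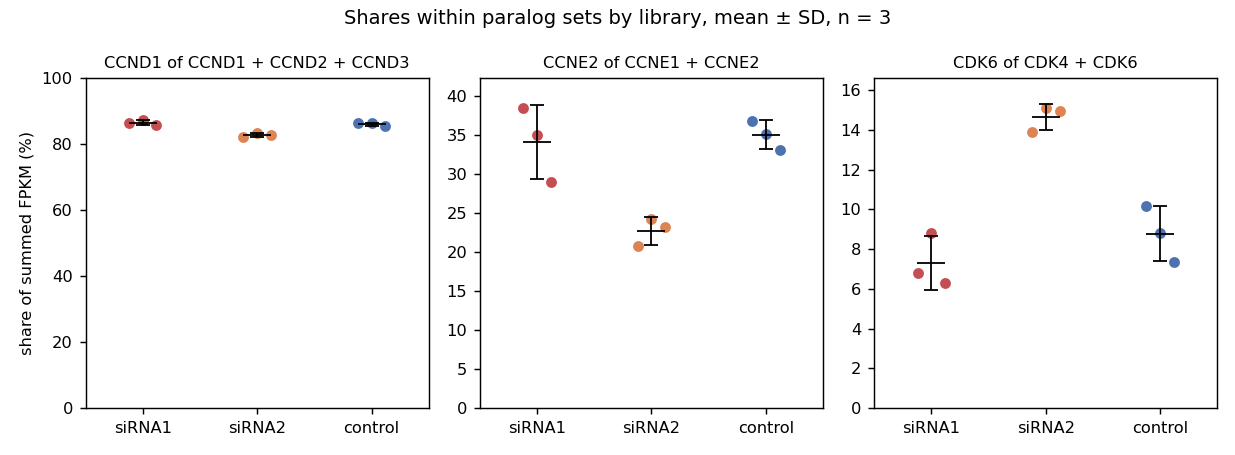
Share of summed FPKM (vertical axes, %, each starting at 0) of CCND1 among the D-type cyclins, CCNE2 among the E-type cyclins and CDK6 among CDK4 and CDK6, for 3 siRNA1, 3 siRNA2 and 3 control libraries; points are libraries, horizontal marks the mean and bars the SD. The siRNA2 points stand apart from the others in each panel, below for CCND1 and CCNE2 and above for CDK6.

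Most tested inhibitors of these kinases were higher with each siRNA. Of 8 listed CDK inhibitors 6 were tested; 5 rose with siRNA1, and 4 rose and 2 fell with siRNA2 (median log2 fold changes 0.66 and 0.74), where 25.1% of all tested genes rose with siRNA1 and 27.2% rose and 28.9% fell with siRNA2. CDKN1B (p27), which binds cyclin E-CDK2 and cyclin A-CDK2, had 68.5, 80.1 and 76.0 CPM in siRNA1 libraries, 48.6, 50.4 and 55.5 CPM in siRNA2 libraries, and 23.2, 22.9 and 24.9 CPM in control libraries. Its groups did not overlap, and its log2 fold change was 1.66 with siRNA1 (adjusted p = 1.65e-14) and 1.12 with siRNA2 (adjusted p = 2.47e-11). CDKN1C (p57) also rose, by 0.63 and 0.95 on the log2 scale (adjusted p = 0.00097 and 3.96e-06), and so did the INK4 inhibitor CDKN2D (0.52 and 0.53, adjusted p = 1.67e-05 and 7.4e-06).

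Other inhibitors differed between the siRNAs. CDKN1A (p21) had 178.6, 166.8 and 166.0 CPM in siRNA1 libraries, 456.6, 430.3 and 401.4 CPM in siRNA2 libraries, and 184.8, 192.6 and 176.5 CPM in control libraries. It rose with siRNA2 (log2 fold change 1.22, adjusted p = 1.5e-14) and did not pass with siRNA1 (-0.12, 95% interval -0.24 to 0.01, adjusted p = 0.117), and siRNA2 stood 1.33 above siRNA1 (adjusted p = 1.33e-15). CDKN2C (p18, an inhibitor of CDK4 and CDK6) rose with siRNA1 (0.93, adjusted p = 2.39e-10) and fell with siRNA2 (-0.69, adjusted p = 7.06e-08), and CDKN3, a phosphatase of CDKs, did likewise (0.69 and -0.29, adjusted p = 8.24e-08 and 0.00367). CDKN2A had 1 count in each of 2 siRNA1 libraries and 0 in the other 7, and CDKN2B 0 in all 9; a count of 0 allows up to 3 counts, or 0.152 to 0.196 CPM across libraries, for counting error only.

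Genes of replication licensing, S phase enzymes and the RB and E2F family were called lower more often than higher with each siRNA. Among all tested genes 25.3% fell with siRNA1, 28.9% with siRNA2 and 11.1% with both. Of 23 genes of replication licensing, which load and start the replicative helicase, 16 fell and 1 rose with siRNA1 and 19 fell with siRNA2 (medians -0.41 and -0.74), and 14 fell with both. GINS2 of the helicase (log2 fold change -0.91 and -0.87), MCM3 (-0.78 and -0.76) and MCM6 (-0.75 and -0.89) had the largest shared drops. Of 18 S phase enzymes 16 fell with each siRNA and 14 fell with both (medians -0.52 and -0.54). Among them were the DNA polymerase alpha subunit POLA1 (-0.67 and -1.52), PCNA, the sliding clamp (-0.65 and -0.57), and UHRF1, which links replication to DNA methylation (-0.56 and -0.94). Of 17 RB and E2F family genes 10 fell and 1 rose with siRNA1, and 10 fell and 3 rose with siRNA2 (medians -0.23 and -0.29). The repressors E2F8 (-1.09 and -1.17) and E2F5 (-1.04 and -0.98) and the activator E2F2 (-0.48 and -1.70) fell with both. All these shared drops had adjusted p below 0.05 with each siRNA, the highest being 0.00222 for E2F2 with siRNA1.

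**Figure D5:**
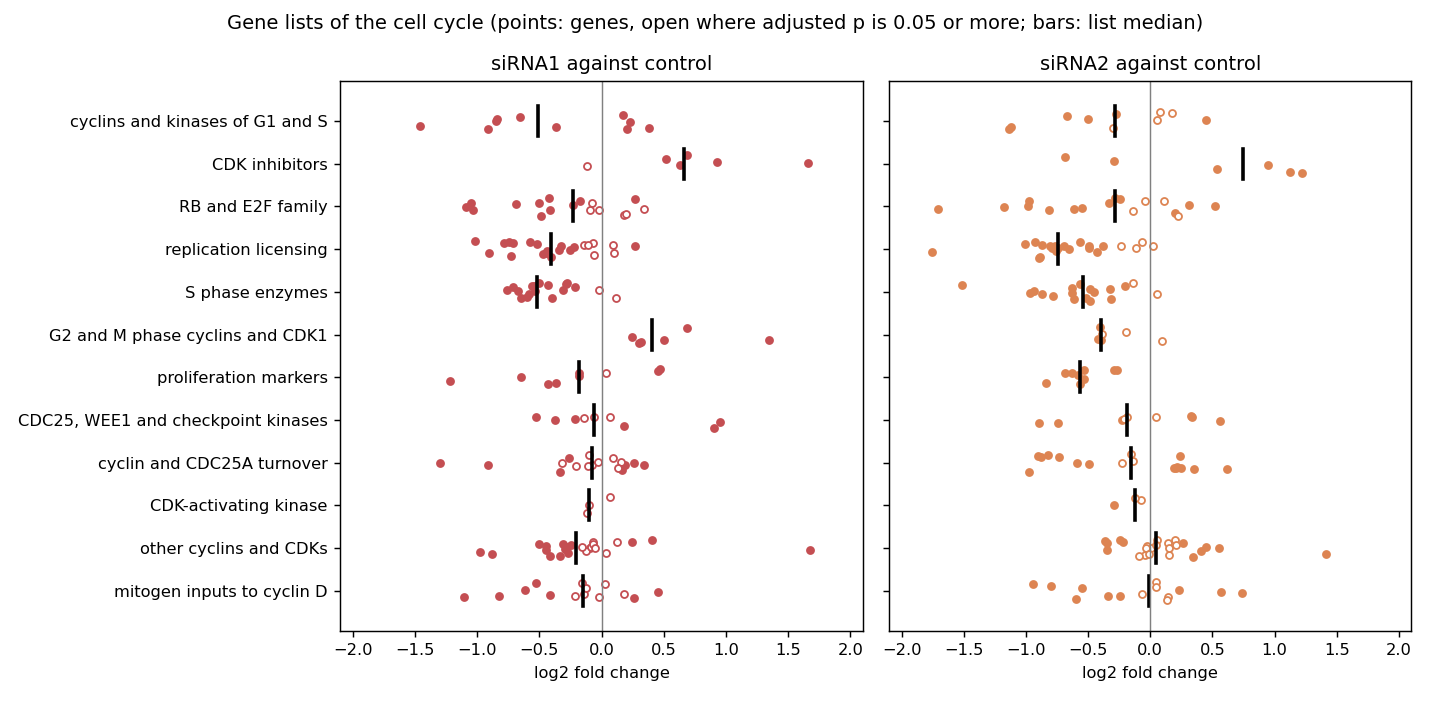
Log2 fold change against control with siRNA1 (left) and siRNA2 (right) of the 10 genes and of 11 lists of cell cycle genes; points are genes, open where the adjusted p is 0.05 or more, and vertical bars are list medians. The licensing and S phase lists have medians between -0.41 and -0.74 with both siRNAs, and the list of G2 and M phase cyclins has 0.41 with siRNA1 and -0.39 with siRNA2.

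The cyclins of G2 and M phase were higher with siRNA1, as CCNA2 was. Of the list's 6 genes 6 rose with siRNA1 and 3 fell with siRNA2 (medians 0.41 and -0.39), beside 25.1% of all tested genes higher with siRNA1 and 28.9% lower with siRNA2. CCNB1, the mitotic cyclin, had 375.8, 394.0 and 389.8 CPM in siRNA1 libraries, 234.9, 251.9 and 253.0 CPM in siRNA2 libraries, and 321.7, 309.6 and 348.7 CPM in control libraries (log2 fold changes 0.24 and -0.41, adjusted p = 0.000937 and 1.41e-06). CDK1, the mitotic kinase, had log2 fold changes of 0.30 and -0.42 (adjusted p = 0.00108 and 2.18e-05). Its groups did not overlap, and neither did those of CCNB1. Of 9 proliferation markers 6 fell and 2 rose with siRNA1, whereas 9 fell with siRNA2 (medians -0.18 and -0.57). Of all tested genes 25.3% fell with siRNA1, and 11.1% fell with both siRNAs. MKI67 (-0.43 and -0.53), PCNA and the spindle checkpoint kinase BUB1 (-0.36 and -0.53) fell with both. The siRNA1 and control ranges of MKI67 overlapped, with siRNA1 library 2 at 754 CPM and control library 3 at 711.4 CPM. BIRC5 and AURKA rose with siRNA1 (0.45 and 0.47) and fell with siRNA2 (-0.58 and -0.27).

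Regulators of CDK phosphorylation and of cyclin turnover were called in both directions, as all tested genes were (25.1% higher and 25.3% lower with siRNA1, 27.2% and 28.9% with siRNA2), and their counts with siRNA1 are near that background. Of 9 CDC25, WEE1 and checkpoint genes 3 rose and 3 fell with each siRNA (medians -0.06 and -0.19). WEE1, the kinase that opposes CDC25A, rose (log2 fold change 0.95 and 0.34, adjusted p = 5.85e-10 and 0.00127), and so did CDC25B, the phosphatase acting at mitotic entry (0.90 and 0.56), while the checkpoint kinase ATR fell (-0.22 and -0.23, adjusted p = 0.0478 and 0.0338) with overlapping groups. Of 17 genes for the turnover of cyclins and CDC25A 4 rose and 4 fell with siRNA1, and 7 rose and 7 fell with siRNA2 (medians -0.08 and -0.15). SKP2, the F-box protein that marks p27 for breakdown, had 20.8, 21.2 and 23.2 CPM in siRNA1 libraries, 33.7, 41.0 and 39.4 CPM in siRNA2 libraries, and 53.5, 50.7 and 56.2 CPM in control libraries. Its groups did not overlap (log2 fold changes -1.30 and -0.49, adjusted p = 5.55e-12 and 1.66e-05). CUL1, the scaffold of the same ligase, fell (-0.26 and -0.97), and its cofactor relative CKS2 rose (0.26 and 0.35). Of the 3 subunits of the CDK-activating kinase, MNAT1 fell with siRNA2 (-0.30, adjusted p = 0.00909) and had 0.07 with siRNA1 (adjusted p = 0.57), while CDK7 and CCNH had values between -0.12 and -0.07 with either siRNA and did not pass (medians -0.10 and -0.12).

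Of 24 other cyclins and CDKs 12 fell and 3 rose with siRNA1 and 5 fell and 6 rose with siRNA2 (medians -0.20 and 0.05). The siRNA2 counts are at or below the share of all tested genes (28.9% lower, 27.2% higher), and the siRNA1 background was 25.3% lower and 25.1% higher. CCNG2, a cyclin linked to growth arrest, rose with both (log2 fold change 0.40 and 1.41), and CDK16 (-0.88 and -0.36) and the transcriptional kinase CDK12 (-0.45 and -0.35) fell with both. Of 14 genes on the mitogen path to cyclin D 5 fell and 2 rose with siRNA1 and 6 fell and 3 rose with siRNA2 (medians -0.15 and -0.01), against the same background. EGFR, the receptor, averaged 231.3 ± 15.9 CPM with siRNA1, 286.5 ± 11.2 CPM with siRNA2 and 497.2 ± 92.0 CPM in control libraries (SD, n = 3 each), and its log2 fold change was -1.10 (adjusted p = 1.48e-10) with siRNA1 and -0.79 (adjusted p = 2.85e-08) with siRNA2. The AP-1 subunit FOSL1 fell as well (-0.61 and -0.94), and TCF7L2, a transcription factor of Wnt signalling, rose (0.45 and 0.74). CCND1 did not fall with either siRNA, and a link between these genes and CCND1 was not tested.

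Each of the 10 genes was set beside 145 other cell cycle genes by its pattern over the 9 libraries. As a description, with the 3 groups making up most of the spread, Pearson's r of log2 CPM was 0.996 for CDK4 with MCM7, the highest of all tested genes for CDK4, and 0.994 for CDK2 with MCM6. CCNE2 was most like E2F8 (r = 0.971) and then CDC6 (0.967), and CCNA2 was most like CDK1 (0.985) and then CCNB1 (0.980). CCNE1 was most like CDK16 (0.985) and SKP2 (0.980), CCND2 like TOP2A (0.975), and CDK6 like CCNK (0.974) and CHEK1 (0.967). CCND1 (0.958) and CDC25A (0.902) were both most like WEE1, with CCNF next, and CCND3 was most like CCNG2 (0.962). These matches were often not the closest of all tested genes: 414 were at least as like CDC25A as WEE1 was, 163 as like CCND3 as CCNG2, 50 as like CDK6 as CCNK and 48 as like CCND1 as WEE1, each count including the named gene, against 2 to 15 for the best matches of CDK2, CCNE1, CCND2, CCNA2 and CCNE2. The second matches of CDK2 and CDK4 were MCM10 (0.982) and UHRF1 (0.986). Among the 10 genes, CDK2 and CDK4 had r = 0.947, CDK2 and CCNE2 0.940, and CCND1 and CDC25A 0.944, while CCND1 and CCNE1 had -0.963. These libraries share their controls and their group structure, so r is no measure of variation within a group.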

How the data were processed

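The authors deposited, per the file headers, a raw count and an FPKM value for each gene and library, with an exonic size in bases. Trimmomatic 0.30, HISAT2 2.0.1, HTSeq 0.6.1 and DESeq are named, without roles, per the submitters' processing notes; the sources used here do not give strandedness. These notes also name hg19, but 99.9% of 58394 gene IDs lie at their GENCODE v29 (GRCh38) locus, so GRCh38 is used. The deposited FPKM values equal count over size and library total within 0.005 for 100% of values.

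Libraries were grouped by the treatment labels. Counts were filtered with filterByExpr (minimum count 10, total of at least 15) and, after TMM scaling, tested two-sided in 1 edgeR quasi-likelihood fit of the 3 groups (R 4.3.3, edgeR 4.0.16; DESeq2 1.42.0 and limma 3.58.1 as alternatives). The 15345 tested genes held 99.87% of counts; the biological coefficient of variation common to all was 0.0641. Chi-square per gene between libraries of the same group was 2.18 to 8.78, so none was counted as a repeat run of the same library. This does not show that the libraries came from separate cultures. In simulated data for siRNA1 against control with 15091 genes, 44% of genes changed 1.25-fold, 76% at 1.5-fold, 92% at 2-fold and 98% at 4-fold were recovered, with 9 false calls. Only 50 genes were changed at each fold there, whereas 50.4% of all tested genes were called with siRNA1 in the real data. These recovery rates and false calls therefore need not hold for the real data. Shares, words and figures used Python 3.11.15 (numpy 2.4.6, pandas 2.3.3, scipy 1.17.1, matplotlib 3.10.9).

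The 10 genes and the lists were chosen with earlier results of these data known. Named beside the 10 are the targeted gene, MYC, the CDK inhibitors, up to 3 genes per list with the largest shared change, and the 2 list genes most like each, of which some are not reported here; CDKN3, BIRC5, AURKA and the marker genes were named after their values were seen. Alternatives were other scaling, filters and tools, a replicate block and leaving out each library. Raw reads were not used here.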

Additional observations from a re-analysis of the deposited data

Results flagged for a closer look

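The response of 9 of the 10 genes differed between the siRNAs, by edgeR's test of siRNA2 against siRNA1 itself with Benjamini-Hochberg adjustment. The log2 fold change of siRNA2 over siRNA1 was 1.16 for CCND2, 0.83 for CDK6, 0.57 for CCNE1 and 0.28 for CCND3. It was -0.73 for CCNA2, -0.32 for CDC25A, -0.30 for CDK4, -0.27 for CDK2 and -0.13 for CCND1. The adjusted p ran from 1.45e-09 for CCNA2 to 0.0224 for CCND1. In each of these genes the 3 siRNA2 libraries lay on the same side of all 3 siRNA1 libraries. CCNE2 was the exception (-0.23, adjusted p = 0.123). The share of all tested genes whose libraries separate in this way was not counted. As 60.4% of all tested genes differ in this comparison, 9 of 10 is not a mark of these genes alone.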

How the results depend on the processing

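Of 567 log2 fold changes of the 10 genes recomputed under alternatives, 547 kept their direction and their side of the threshold, 16 lost the call, 4 gained it and 0 reversed. The number of the 10 called higher with siRNA2 went to 2 with a mean FPKM of at least 1 and with no filter on low counts, and ran from 1 to 2 with 1 library left out. The MILIP difference of siRNA2 from siRNA1 lost its call with limma on log2(FPKM + 0.1) (-0.81), with limma on log2(FPKM + 1) with or without a filter (-0.31 in both) and with only those groups fitted (-0.97), and ran from -1.48 to -0.51 with 1 library left out. The CCNE2 share with siRNA1 less control ran from -3.06 to 1.64 percentage points with 1 library left out, and reversed, at 1.64, without siRNA1 library 3. In shares of summed CPM, which are not per length, the difference was -14.6 for CCNE2 with siRNA2 less control, and for CDK6 -3.82 with siRNA1 less control, 12.9 with siRNA2 less control and 16.8 with siRNA2 less siRNA1. The cause of these shifts was not tested, apart from the length weighting of CPM. Libraries with the same number did not deviate together (correlations of -0.094 to 0.129), so the numbers were not used as pairs; with a replicate block no call of the 10 genes changed, and 6 were lower and 4 higher with siRNA1. CCND2, with 19 to 84 counts a library, is the gene whose values depth limits most.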
